A study of Mus musculus with 34 samples.

Results

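The metallothionein genes of the mouse, Mt1, Mt2, Mt3 and Mt4, were followed through 34 RNA-seq libraries of ES cells lacking one or all of the Mta subunits of the NuRD (nucleosome remodelling and deacetylation) complex. The 4 genes were chosen by name, with their levels in these libraries already known, so their values are given as a description and without p-values. All 4 members were found among the 22018 genes of the single-mutant files and among the 48709 genes of the Mta123KO files. Metallothioneins are small cysteine-rich proteins that bind zinc and copper and buffer the free metal of the cell. Transcription of Mt1 and Mt2, the widely expressed pair, is raised by zinc through Mtf1, a zinc finger factor that binds metal response elements, and also by glucocorticoids and oxidative stress. Mt3 is known chiefly from the brain and Mt4 from stratified squamous epithelia.

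Single-mutant libraries, 3 per group, came from self-renewing ES cells in 2i/LIF (2iL), that is, with the cytokine LIF and a pair of kinase inhibitors that block Mek and Gsk3. Mta1_del and Mta3_del carry alleles deleted by Cre and were set against their own parents, Mta1_flox and Mta3_flox. Mta2_KO, a null line, was set against Mta2_WT. The second set held 4 libraries in each of 4 groups, from 2 lines with 2 libraries each, of Control and Mta123KO cells labelled 2iL or labelled as 48 h without inhibitors and LIF. Control here is not wild type, since its line is Mta1 +/∆ Mta3 flox/flox, and Mta123KO (Mta1 ∆/∆ Mta2 ∆/- Mta3 ∆/∆) was made by Cre in Mta1 ∆/∆ Mta2 ∆/- Mta3 flox/flox cells. The cells are of 129/Ola strain. Nothing in the labels says that libraries came from separate cultures, so p-values measure the spread between these libraries.

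The deposited values are read counts per gene, with 13105820 to 40613585 counts per library in the single mutants and 37855790 to 57602285 in the second set. They are given as CPM, counts scaled to the library total, after TMM normalization. The targeted gene was lower in each mutant than in its parent. Mta2 was at 10.3 ± 1.24 CPM in Mta2_KO and 236 ± 11.99 in Mta2_WT (SD, n = 3), and Mta3 at 11.2 ± 1.74 in Mta3_del and 67.4 ± 5.17 in Mta3_flox. Mta1 was at 43.4 ± 4.41 in Mta1_del and 84.5 ± 17.2 in Mta1_flox, and Mta2 at 6.73 ± 2.096 in Mta123KO and 122 ± 8.13 in Control, both labelled 2iL (n = 4). The culture labels of the second set go against the markers: Nanog, a naive pluripotency factor, was at 67.0 ± 15.2 CPM in Control labelled 2iL and at 938 ± 78.1 in Control labelled 48 h (SD, n = 4), and the file names give the opposite culture too. Groups are therefore called labelled 2iL and labelled 48 h. Exchanging the labels would exchange the paired genotype comparisons and reverse every culture difference given here.

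The family lies in 43.1 kb of chromosome 8 (GRCm38), in the order Mt4, Mt3, Mt2, Mt1, all on the + strand, each with 3 exons in its first listed transcript. Mt4 (ENSMUSG00000031757) is at chr8:94137197-94139031 and Mt3 (ENSMUSG00000031760) at chr8:94152607-94154146. Mt2 (ENSMUSG00000031762) is at chr8:94172664-94173568 and Mt1 (ENSMUSG00000031765) at chr8:94179082-94180327. The upstream sequences are shown because Mt1 and Mt2 moved together. For each gene the 250 bases before the RefSeq start (GRCm38.p6, + strand, 5′ to 3′) are printed, and capitals mark the core of the metal response element, TGCACNC or TGCGCNC on either strand, where matches may overlap.
Mt1, chr8:94178839-94179088: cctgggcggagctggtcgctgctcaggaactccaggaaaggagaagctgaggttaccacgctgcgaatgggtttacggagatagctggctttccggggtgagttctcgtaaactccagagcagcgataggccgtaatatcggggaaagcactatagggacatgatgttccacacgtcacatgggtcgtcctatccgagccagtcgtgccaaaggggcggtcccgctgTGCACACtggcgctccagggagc
Mt2, chr8:94172368-94172617: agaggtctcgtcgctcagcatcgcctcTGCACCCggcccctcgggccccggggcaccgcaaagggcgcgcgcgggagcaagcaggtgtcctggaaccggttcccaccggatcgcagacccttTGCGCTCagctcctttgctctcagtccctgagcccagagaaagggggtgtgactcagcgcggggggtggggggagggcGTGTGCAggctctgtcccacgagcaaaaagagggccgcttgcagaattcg
Mt3, chr8:94152357-94152606: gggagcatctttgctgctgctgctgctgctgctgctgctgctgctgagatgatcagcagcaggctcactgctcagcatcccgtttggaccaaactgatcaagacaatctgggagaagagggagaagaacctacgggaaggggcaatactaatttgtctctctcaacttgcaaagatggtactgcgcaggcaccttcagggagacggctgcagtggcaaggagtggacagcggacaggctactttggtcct
Mt4, chr8:94136954-94137203: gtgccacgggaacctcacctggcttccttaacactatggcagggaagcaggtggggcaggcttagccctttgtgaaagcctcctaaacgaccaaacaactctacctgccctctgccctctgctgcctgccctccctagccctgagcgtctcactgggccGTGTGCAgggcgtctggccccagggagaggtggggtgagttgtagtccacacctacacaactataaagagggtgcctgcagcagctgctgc

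In these windows the Mt2 sequence held 3 cores, Mt1 and Mt4 1 each and Mt3 none. Among 32851 RefSeq windows of the same length 21.4% held at least 1 core and 1.26% at least 3. The Mt2 window also held 1 copy of the antioxidant response element core TGACNNNGC, found in 10.2% of windows, and the other members held none. The letters TATAAA of a TATA box lay 30 bases before the start of Mt4. In Mt1, Mt2 and Mt3 they lay inside the annotated transcript, at base 129, 90 and 107 of the first listed GENCODE transcript, so the sequence just before the TATA box is annotated there as exon. The first 120 bases of those transcripts held 4 cores in Mt1, 3 in Mt2, 3 in Mt3 and none in Mt4. Of 58725 protein-coding transcripts, 0.0307% held at least 4 cores and 0.283% at least 3 in the same stretch. The first pair of cores in each of the co-expressed genes shows that they differ in strand, reading TGC on this strand in Mt1 and the reverse complement in Mt2.
Mt1, chr8:94179091-94179115: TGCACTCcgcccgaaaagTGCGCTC
Mt2, chr8:94172676-94172701: GTGTGCAggcggcgggggcGCGTGCA
A match of letters is a description, and binding by Mtf1 was not examined here.

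Mt1 and Mt2 were abundant in every library, and Mt3 and Mt4 were scarce and in some libraries near the lower limit of detection. Mt3 held 80 to 138 counts in Control labelled 2iL and Mt4 held 45 to 95 counts in Mta3_del. Mt1 ranged from 138 to 906 CPM and Mt2 from 211 to 963 CPM over the 34 libraries, whereas Mt3 ran from 0 to 2.83 CPM and Mt4 from 0 to 3.75 CPM. A count of 3, taken as the limit that a count of 0 allows, is worth 0.0770 to 0.220 CPM in the single-mutant libraries and 0.0533 to 0.0789 in the second set, for counting error only. Per kb of transcript the mean level of Mt1 ran from 345 CPM per kb in Mta3_flox to 1336 in Mta123KO labelled 2iL. That of Mt2 ran from 532 in Control labelled 2iL to 1818 in Mta2_KO. Ordered by mean CPM, Mta123KO labelled 2iL (733 ± 171) and Mta2_KO (660.5 ± 26.7) were highest for Mt1, with overlapping libraries, and Mta2_KO did not overlap the next group, Mta3_del (536 ± 64.5). The other neighbours in the Mt1 order overlapped, down to Mta3_flox at 189 ± 75.1. For Mt2, Mta2_KO (929 ± 30.7), Mta3_del (679 ± 35.5) and Mta2_WT (552 ± 3.28) did not overlap in turn, and all later neighbours did, down to Control labelled 2iL at 272 ± 29.99. Levels were not compared statistically between the sets, which differ in library type. In the second set, the antisense gene Gm45774 (chr8:94170748-94173412, - strand) overlaps Mt2 and carried 99.4% to 99.7% of the Mt2 count in each of the 16 libraries, so reads of the Mt2 locus were counted without regard to strand and its sense and antisense RNA cannot be told apart. The longest run of identical bases between the first listed transcripts of Mt1 and Mt2 was 20, and between those of Mt1 and Mt3 it was 27.

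**Figure D1:**
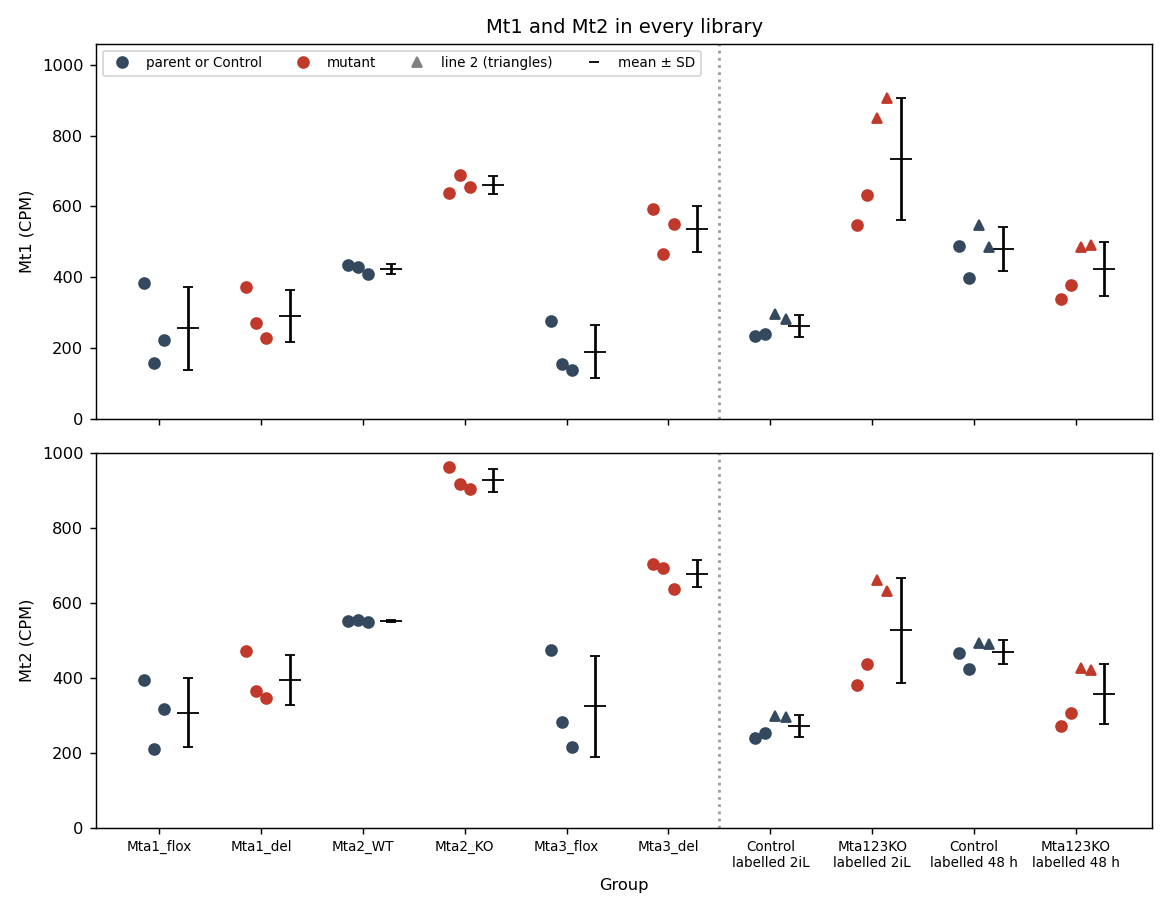
Level of Mt1 (top) and Mt2 (bottom) in CPM in each of the 34 libraries by group, with the group mean and SD as a black bar; dark blue points are parents or Control, red points mutants, triangles are line 2 of the second set, and the dotted line divides the sets. Every Mta2_KO and Mta3_del library lies above the libraries of its parent, and every Mta123KO library labelled 2iL above the Control libraries of that label, while the libraries labelled 48 h overlap for both genes.

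Mt1 and Mt2 were higher in every library of Mta2_KO and Mta3_del than in any library of the parent, and overlapped between Mta1_del and Mta1_flox. In Mta2_WT, Mt1 was at 435, 429 and 408 CPM, and in Mta2_KO at 637, 689 and 655 CPM. Mt2 was at 553, 555 and 548 CPM in Mta2_WT and at 963, 919 and 904 CPM in Mta2_KO. The groups did not overlap, and the mutant exceeded the wild type by 0.65 (SE 0.05) for Mt1 and 0.76 (SE 0.05) for Mt2 on the log2 scale. Both stayed under the fold threshold used to call a gene misexpressed, an absolute log2 fold change above 1 with an adjusted p under 0.05 in edgeR's quasi-likelihood test. Past both thresholds, 5.31% of the 15602 genes tested were higher in Mta2_KO and 6.04% lower. Differences were common there, and 8433 of these genes had an unadjusted p under 0.05 in that test. The share of all genes without overlap was not counted in any comparison. Whether a lack of overlap is particular to the metallothionein genes therefore cannot be said, here or below. Summed markers of some other cell types were also higher in every Mta2_KO library than in Mta2_WT. They were 218 to 242 against 66.0 to 75.4 CPM for 5 brain neuron and glia markers. For 4 early neural markers they were 88.1 to 99.7 against 24.8 to 30.4 CPM, and for 6 trophoblast markers 139 to 147 against 88.6 to 101 CPM. Formative epiblast markers were lower, at 73.6 to 80.6 against 98.7 to 109 CPM. Primitive endoderm markers (5.16 to 7.24 against 7.65 to 8.07 CPM) and naive ES cell markers (4147 to 4456 against 5462 to 5916 CPM) were lower too. Fibroblast and stratified epithelium markers overlapped. Of the brain markers, Aqp4 was under 0.1 CPM in both groups and Gfap was lower in Mta2_KO, at 0.233 to 0.282 against 0.418 to 0.496 CPM. The part of these markers in the metallothionein differences was not tested. In these bulk libraries fewer cells expressing a gene and less RNA per cell cannot be told apart.

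In the Mta3 comparison the parent varied more. Mt1 was at 275, 155 and 138 CPM in Mta3_flox and at 593, 466 and 550 CPM in Mta3_del. Mt2 was at 474, 282 and 215 CPM in Mta3_flox and at 705, 694 and 639 CPM in Mta3_del. The first parent library was the highest of its group for both genes and still lay below every mutant library. The log2 difference was 1.45 (SE 0.25) for Mt1 and 1.02 (SE 0.26) for Mt2, both past the thresholds. In this comparison 0.812% of 15522 genes were called higher and 5.25% lower, and 5602 had an unadjusted p under 0.05 in edgeR. The Mt1 call held without replicate 2 of both groups (1.41) and was lost without replicate 1 (1.76) or replicate 3 (1.26), and Mt2 lost its call whichever replicate was left out (0.84 to 1.39). Summed over 1088 genes, olfactory receptor counts ran from 41.1 to 175 CPM in Mta3_flox and from 33.3 to 86.7 CPM in Mta3_del, and the 5 fibroblast markers from 11.6 to 58.7 CPM against 5.67 to 6.52 CPM, with Dcn under 0.1 CPM in Mta3_del. Their part in the metallothionein difference was not tested.

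Mta1_del and Mta1_flox overlapped for all 4 members. Mt1 was at 384, 159 and 224 CPM in Mta1_flox and at 371, 271 and 228 CPM in Mta1_del. Mt2 was at 395, 211 and 316 CPM in Mta1_flox and at 472, 366 and 347 CPM in Mta1_del. Replicate 1 was the highest library of its group for both genes in both genotypes. The log2 difference was 0.17 (SE 0.33) for Mt1 and 0.35 (SE 0.24) for Mt2. Same-numbered libraries deviated together here, and with the replicate block the differences were 0.24 (SE 0.18) and 0.38 (SE 0.14), neither called; Mt2 was higher in Mta1_del in 3 of 3 pairs. With edgeR none of the 14561 genes tested was called, 0.0% in either direction. 50 genes had an unadjusted p under 0.05, and DESeq2 called none either. With the replicate block 468 had an unadjusted p under 0.05 in edgeR, and none was called. The deleted gene Mta1 was not called either, at 43.4 ± 4.41 against 84.5 ± 17.2 CPM. A lack of calls here therefore does not show a lack of difference.

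Mt1 and Mt2 were higher in every Mta123KO library labelled 2iL than in any Control library of that label, and overlapped between the genotypes labelled 48 h. In Control labelled 2iL, Mt1 was at 235 and 239 CPM in line 1 and at 296 and 283 CPM in line 2. In Mta123KO labelled 2iL it was at 547 and 632 CPM in line 1 and at 849 and 906 CPM in line 2. The groups did not overlap, and each mutant line exceeded each Control line. Mt2 was at 239, 253, 298 and 296 CPM in Control and at 380, 437, 663 and 631 CPM in Mta123KO, lines in the same order. The log2 difference was 1.48 (SE 0.16) for Mt1, past both thresholds, and 0.96 (SE 0.18) for Mt2, under the fold threshold. In this comparison 13.2% of 21651 genes were called higher and 7.43% lower, and 12456 had an unadjusted p under 0.05 in edgeR. In both genotypes line 2 was higher than line 1 for both genes, and the line numbers do not tie a mutant line to a Control line.

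In libraries labelled 48 h, Mt1 was at 488, 399, 547 and 484 CPM in Control and at 340, 379, 485 and 491 CPM in Mta123KO. Mt2 was at 468, 423, 493 and 491 CPM in Control and at 272, 308, 426 and 422 CPM in Mta123KO. For Mt2 the highest mutant library passed the lowest Control library by less than the gap between the mutant lines. The log2 differences were -0.16 (SE 0.14) and -0.38 (SE 0.14), and none of the 4 members was called, where 14.1% of 21079 genes were called higher and 5.93% lower. The libraries of this comparison share no sample with those labelled 2iL.

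Between the labels, Mt1 and Mt2 differed in opposite directions in the 2 genotypes. In Control, the libraries labelled 48 h exceeded those labelled 2iL by 0.86 (SE 0.10) for Mt1 and 0.78 (SE 0.08) for Mt2 on the log2 scale, with no overlap. In Mta123KO they were lower, by -0.79 (SE 0.19) for Mt1, with no overlap, and by -0.56 (SE 0.22) for Mt2, with overlap between lines but none within a line. None of these 4 differences passed the fold threshold. Of all genes tested between labels, 13290 of 21240 in Control and 7646 of 21505 in Mta123KO had an unadjusted p under 0.05 in edgeR. The genotype by culture interaction, the difference between the pair of culture differences, was -1.63 (SE 0.23) for Mt1 and -1.32 (SE 0.24) for Mt2, both past the thresholds. With Mt4, 3 of 4 members were called lower in the interaction, where 5.37% of 22973 genes were called lower and 7.66% higher. This count is a description, since the members were chosen with their levels known. Mt4 held only 0 to 12 counts in Control labelled 2iL and entered the test mainly through the other groups. With the libraries of each line summed, which leaves 2 values per group, none of the 3 interactions was called, at -1.64 for Mt1 and -1.33 for Mt2. The 4 culture and genotype comparisons share groups with each other and with the interaction.

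**Figure D2:**
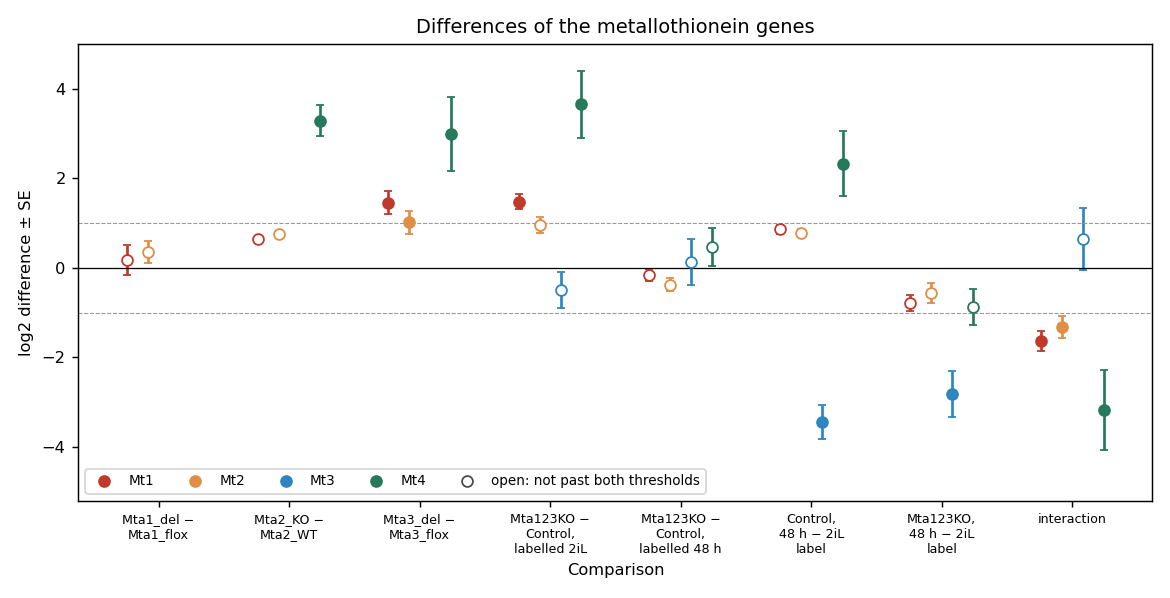
Log2 difference of each metallothionein gene that passed the filter on low counts (y axis, with SE as bars) in the 7 comparisons and the interaction (x axis); filled points passed both thresholds, open points did not, and the dashed lines stand at the fold threshold. Mt4 lies above 2 in Mta2_KO, Mta3_del, Mta123KO labelled 2iL and Control labelled 48 h against labelled 2iL. Mt3 lies below -2 in both culture comparisons.

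Mt4 was scarce everywhere, and its libraries in Mta2_KO, Mta3_del and Mta123KO labelled 2iL lay above all those of the parent or Control. In these comparisons it passed the filter on low counts only through the mutant group, as Mt3 did through the libraries labelled 2iL between labels, so a call was fixed in part by how the gene entered the test and is given as a description. The same holds for the Mt4 calls between labels in Control and in the interaction, where Control labelled 2iL held 0 to 12 counts. Mta2_WT held 9, 5 and 3 counts of Mt4 and Mta2_KO 56, 57 and 52 counts. In CPM these were 0.258, 0.131 and 0.0931 against 1.44, 1.66 and 1.70, with no overlap and a log2 difference of 3.29 (SE 0.35), past both thresholds. In Mta3_flox there were 12, 9 and 0 counts and in Mta3_del 74, 95 and 45, or 0.827, 0.317 and 0 CPM against 2.72, 3.75 and 1.94 CPM. That difference of 2.99 (SE 0.82) was called with all libraries and lost whichever replicate was left out. Mt4 in the Mta1 groups, at 4, 1 and 16 counts in Mta1_flox and 4, 7 and 29 counts in Mta1_del, overlapped and did not pass the filter.

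In Control labelled 2iL, Mt4 had 0, 2, 4 and 12 counts, and in Mta123KO labelled 2iL it had 74, 87, 24 and 33. The groups did not overlap, at 0, 0.0410, 0.0819 and 0.265 CPM against 1.57, 1.97, 0.587 and 0.715 CPM, and the log2 difference was 3.65 (SE 0.75), called with single libraries but not with the libraries of each line summed (3.65). Here line 1 was the higher of the mutant lines, unlike for Mt1 and Mt2. In libraries labelled 48 h, Mt4 was at 0.249, 0.210, 0.699 and 0.798 CPM in Control and at 0.739, 0.768, 0.645 and 0.513 CPM in Mta123KO. These overlapped, with a difference of 0.47 (SE 0.42). Between labels Mt4 was 2.33 (SE 0.73) higher in Control labelled 48 h, and the difference was -0.87 (SE 0.40) in Mta123KO. In Control 1 library labelled 2iL lay within the range of those labelled 48 h, but within each line the labels did not overlap. The Control difference was called, and the call was lost without replicate 2_1 (2.05) or with the libraries of each line summed (2.35). The Mt4 interaction was -3.17 (SE 0.90), past both thresholds, and its call was lost without replicate 1_1 (-2.88), 1_2 (-2.90) or 2_1 (-3.10).

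The summed level of 5 stratified epithelium markers (Krt5, Krt14, Krt1, Krt10 and Trp63) was also higher in Mta123KO. It was 14.1 and 13.3 CPM in line 1 and 3.40 and 3.29 CPM in line 2 of Mta123KO labelled 2iL, and 1.21 to 1.57 CPM in Control. Labelled 48 h, it was 15.6 and 18.5 CPM in line 1 and 4.47 and 5.11 CPM in line 2, and 1.34 to 1.90 CPM in Control, where Mt4 did not differ beyond the spread. Krt5 made up much of the sum, with a mean of 5.17 CPM in Mta123KO labelled 2iL and 6.88 labelled 48 h against 0.0781 and 0.0941 in Control, whereas Krt1 was under 0.1 CPM in both Control groups and in Mta123KO labelled 48 h. In the single mutants the sum was 2.36 to 2.48 CPM in Mta2_KO against 1.96 to 2.92 in Mta2_WT and 1.66 to 2.16 CPM in Mta3_del against 1.85 to 3.51 in Mta3_flox. The trophoblast markers also rose with genotype, from 16.03 to 19.6 CPM in Control to 101 to 442 CPM in Mta123KO labelled 2iL. The part of other cell types in Mt4 of Mta123KO was not tested.

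Mt3 was higher in libraries labelled 2iL than in those labelled 48 h in both genotypes, and overlapped between the genotypes. In libraries labelled 2iL it was at 2.31, 1.64, 2.83 and 1.85 CPM in Control and at 0.742, 0.792, 1.93 and 2.62 CPM in Mta123KO. Labelled 48 h, it was at 0.142, 0.0526, 0.241 and 0.352 CPM in Control and at 0.254, 0.110, 0.312 and 0.183 CPM in Mta123KO. Every library labelled 2iL exceeded every library labelled 48 h. The log2 difference of 48 h against 2iL was -3.44 (SE 0.37) in Control and -2.81 (SE 0.52) in Mta123KO, both called, the latter lost when each line's libraries were added together (-2.84), where 10.4% of 21240 genes were called higher and 13.2% lower in Control, and 4.84% of 21505 higher and 4.62% lower in Mta123KO. Between genotypes Mt3 differed by -0.51 (SE 0.40) labelled 2iL and 0.13 (SE 0.52) labelled 48 h, with overlap in both, and its interaction of 0.65 (SE 0.70) was not called. The formative epiblast markers (Fgf5, Otx2, Dnmt3b and Pou3f1) moved the same way, from 747 to 1287 CPM in Control labelled 2iL against 73.5 to 85.1 CPM labelled 48 h. The 5 brain neuron and glia markers did not, at 48.4 to 54.4 CPM against 49.2 to 67.1 CPM. Their part in Mt3 was not tested.

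In the single-mutant libraries Mt3 had 0 to 31 counts and passed the filter in no comparison. Mta2_WT held 0, 0 and 3 counts and Mta2_KO 5, 12 and 4, which did not overlap but lay near the limit of detection. The summed brain markers were higher in Mta2_KO, as given above, though Gfap was lower. Their part in Mt3 of Mta2_KO was not tested. Mta1_flox held 4, 0 and 12 counts against 4, 1 and 31 in Mta1_del, and Mta3_flox 2, 13 and 1 against 26, 7 and 3 in Mta3_del, both overlapping.

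**Figure D3:**
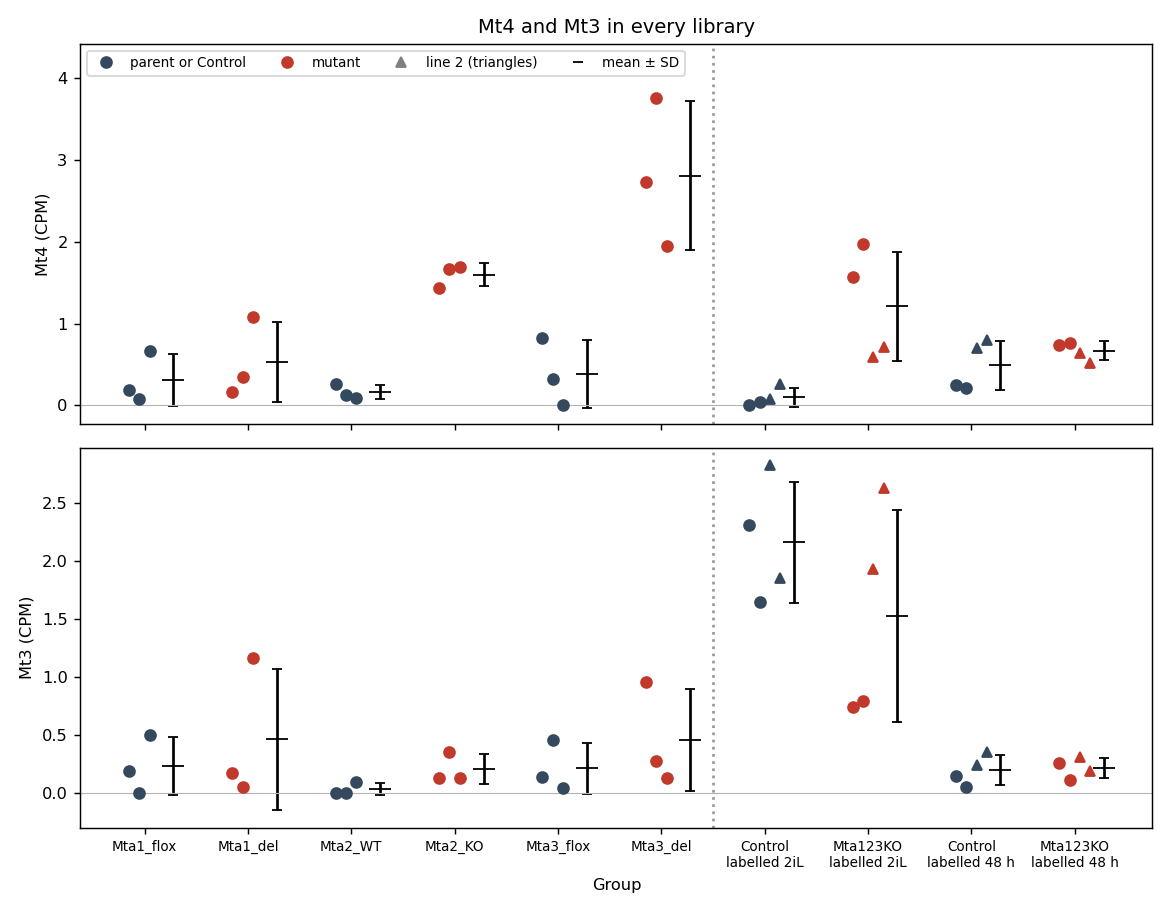
Level of Mt4 (top) and Mt3 (bottom) in CPM in each of the 34 libraries by group, with the group mean and SD as a black bar; dark blue points are parents or Control, red points mutants, triangles are line 2, and the dotted line divides the sets. Mt4 is above its parent in all libraries of Mta2_KO, Mta3_del and Mta123KO labelled 2iL, and Mt3 exceeds 0.7 CPM in every library labelled 2iL of the second set and stays under 0.4 CPM in those labelled 48 h.

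Mt1 and Mt2 did not move by the same amount in Mta123KO. Within a library the level of Mt1 was 0.968 ± 0.0233 times that of Mt2 in Control labelled 2iL and 1.02 ± 0.0727 times in Control labelled 48 h (SD, n = 4). In Mta123KO the ratio was 1.40 ± 0.0795 labelled 2iL and 1.20 ± 0.0535 labelled 48 h. The lowest mutant library, at 1.14, lay above the highest Control library, at 1.11, over both labels. In the single-mutant set the ratio was lower, from 0.589 ± 0.0459 in Mta3_flox to 0.811 ± 0.142 in Mta1_flox (n = 3). Mta3_del, at 0.791 ± 0.104, did not overlap its parent, whereas Mta2_KO (0.712 ± 0.0460) and Mta2_WT (0.768 ± 0.0222) overlapped. These ratios are of CPM and not per kb, and the second set counts the antisense reads at Mt2 as well.

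Other genes of metal handling, oxidative stress and the glucocorticoid response were read from 6 lists of 50 genes in all, of which 47 or 48 were tested in each comparison. Mtf1, the factor that activates Mt1 and Mt2 when zinc is high, was called in no comparison. It rose by 0.36 (SE 0.07, edgeR adjusted p = 0.0032) in Mta123KO labelled 2iL and by 0.62 (SE 0.06, adjusted p = 9.99e-06) in Control labelled 48 h against labelled 2iL, both under the fold threshold. In Mta2_KO it differed by 0.01 (SE 0.06, adjusted p = 0.94) and in Mta3_del by 0.30 (SE 0.12, adjusted p = 0.11). Slc30a1, the plasma membrane zinc exporter that Mtf1 also activates, was at 84.8 ± 1.29 CPM in Mta2_KO and 46.3 ± 4.24 in Mta2_WT. That rise of 0.88 (SE 0.06, adjusted p = 2.56e-06) stood beside differences of 0.65 for Mt1 and 0.76 for Mt2 in the same libraries. In Mta123KO labelled 2iL it rose by 0.97 (SE 0.13, adjusted p = 0.00033), from 16.2 ± 1.80 to 31.6 ± 5.30 CPM, and the libraries did not overlap. It also rose with the 48 h label in Control, by 1.27 (SE 0.12, adjusted p = 6.54e-06), the one comparison in which it passed the fold threshold. It rose with that label in Mta123KO too, by 0.62 (SE 0.13, adjusted p = 0.00919), where Mt1 and Mt2 were lower. In Mta3_del it was not called, with a difference of 0.19 (SE 0.17, adjusted p = 0.462), and in Mta1_del the difference was 0.08 (SE 0.17), not called either. Slc39a10, a zinc importer, rose by 0.57 (SE 0.05, adjusted p = 9.98e-06) in Mta2_KO and fell by 0.92 (SE 0.21, adjusted p = 0.00594) in Mta123KO labelled 2iL.

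Few genes of the Slc30 family, listed here as zinc exporters by family alone, passed the fold threshold. An adjusted p under 0.05 was found for 8 of 9 tested in Mta2_KO and 8 of 9 in Mta123KO labelled 2iL. The share of all genes at that adjusted p was not counted, for this list or the lists below. Small p-values were common there. In edgeR 8433 of 15602 genes in Mta2_KO and 12456 of 21651 in Mta123KO labelled 2iL had an unadjusted p under 0.05. The metal that each one carries was not examined. In Mta2_KO, 1 of 9 tested was called higher, Slc30a3, by 1.79 (SE 0.22, adjusted p = 0.000125), and 1 lower, Slc30a10, by -2.11 (SE 0.20, adjusted p = 2.98e-05). The median of the list was 0.35 there, against 0.00 over all genes tested. In Mta123KO labelled 2iL, 1 of 9 was called higher, Slc30a2, an exporter into vesicles, by 4.602 (SE 0.69, adjusted p = 0.000606). Its level was 15.1, 15.6, 4.06 and 2.75 CPM in Mta123KO and 0.219, 0.205, 0.553 and 0.573 CPM in Control, higher in line 1 of the mutant as Mt4 was. Labelled 48 h, 2 of 9 were called higher, Slc30a4 by 1.18 and Slc30a10 by 1.02 (adjusted p = 0.000181 and 0.00203). In Control labelled 48 h against labelled 2iL, 3 of 9 rose (Slc30a1, Slc30a2 and Slc30a10) and Slc30a9 fell by 1.54 (SE 0.13, adjusted p = 1.85e-06). In Mta123KO, Slc30a10 alone rose, by 2.23 (SE 0.22, adjusted p = 0.00039).

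Zinc importers of the Slc39 family were called in the second set alone, which differs from the single-mutant set in library type. Labelled 2iL, 1 of 13 rose in Mta123KO, Slc39a11, by 1.33 (SE 0.18, adjusted p = 0.000366). Labelled 48 h, 3 of 13 rose, led by Slc39a8 (3.28, SE 0.31, adjusted p = 4.83e-05) and Slc39a14 (1.99, SE 0.31, adjusted p = 0.000707), and Slc39a3 fell by 1.41 (SE 0.17, adjusted p = 0.000184). Slc39a8 was at 0.940 ± 0.182 CPM in Mta123KO and 0.0946 ± 0.0362 in Control, the latter near the limit of detection. It entered that test mainly through the mutant group, so its call is a description. Between labels in Control, 5 of 12 rose, with Slc39a11 (2.36), Slc39a2 (1.76) and Slc39a4 (1.65) foremost, and Slc39a14, a zinc and manganese importer, fell by 4.54 (SE 0.28, adjusted p = 1.63e-07). The level of Slc39a14 was 118, 104, 125 and 121 CPM in Control labelled 2iL and 5.12, 2.55, 8.55 and 3.87 CPM labelled 48 h. None of the importers was called in a single mutant, although 7 of 13 in Mta2_KO and 3 of 13 in Mta3_del had an adjusted p under 0.05 (0 of 12 in Mta1_del). Over all 6 lists DESeq2 called 2 genes in Mta2_KO, 4 in Mta3_del and 0 in Mta1_del.

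None of the 8 genes of copper handling (Slc31a1, Slc31a2, Atp7a, Atp7b, Atox1, Ccs, Cox17 and Sod1) was called in any comparison, although 5 of 8 in Mta2_KO and 6 of 8 in Mta123KO labelled 2iL had an adjusted p under 0.05. Of 10 glutathione and Nrf2 stress genes, Srxn1 (1.18, SE 0.13, adjusted p = 0.0125) and Nqo1 (1.01, SE 0.14, adjusted p = 0.0148) rose in Mta3_del, where the 3 calls over all lists became 0 without replicate 1 or replicate 3, and the list median was 0.45 against -0.01 over all genes. Labelled 48 h, Nqo1 fell by 1.13 (SE 0.15, adjusted p = 0.00034) in Mta123KO. Keap1, the repressor of Nrf2, rose by 1.57 (SE 0.09, adjusted p = 9.7e-08) with the 48 h label in Control. Of 7 glucocorticoid-responsive genes, Sgk1 fell in Mta123KO by 2.36 (SE 0.12, adjusted p = 3.35e-06) labelled 2iL, where Mt1 rose, and Zbtb16 rose by 2.40 (SE 0.74, adjusted p = 0.0221). Tsc22d3 fell by 1.54 (SE 0.35, adjusted p = 0.0261) in Mta3_del, where Mt1 and Mt2 rose. Labelled 48 h, Zbtb16 rose by 2.20, Tsc22d3 rose by 1.003 and Sgk1 fell by 1.04 (adjusted p = 0.0343, 0.00735 and 0.0107). Sgk1 rose with the 48 h label in both genotypes, by 1.54 in Control and 2.84 in Mta123KO (adjusted p = 1.77e-06 and 0.000442). Over all lists, 0 of 47 genes were called in Mta1_del. In Mta2_KO 2 of 48 were called, where 5.31% of all genes were called higher and 6.04% lower, and in Mta3_del 3 of 48, where 0.812% were higher and 5.25% lower. In Mta123KO labelled 2iL 4 of 48 were called, where 13.2% were higher and 7.43% lower, and labelled 48 h 10 of 48, where 14.1% were higher and 5.93% lower. Between labels 12 of 47 were called in Control, where 10.4% were higher and 13.2% lower, and 3 of 48 in Mta123KO, where 4.84% were higher and 4.62% lower. With higher and lower calls added, the list shares in these comparisons were near or below those of all genes. By direction this did not always hold. Between labels in Control, 10 of 47 list genes were called higher and 2 lower, against 10.4% and 13.2% of all genes. In Mta3_del, 2 of 48 were called higher and 1 lower, against 0.812% and 5.25%. The higher share thus exceeded that of all genes there, and the lower share was below it.

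**Figure D4:**
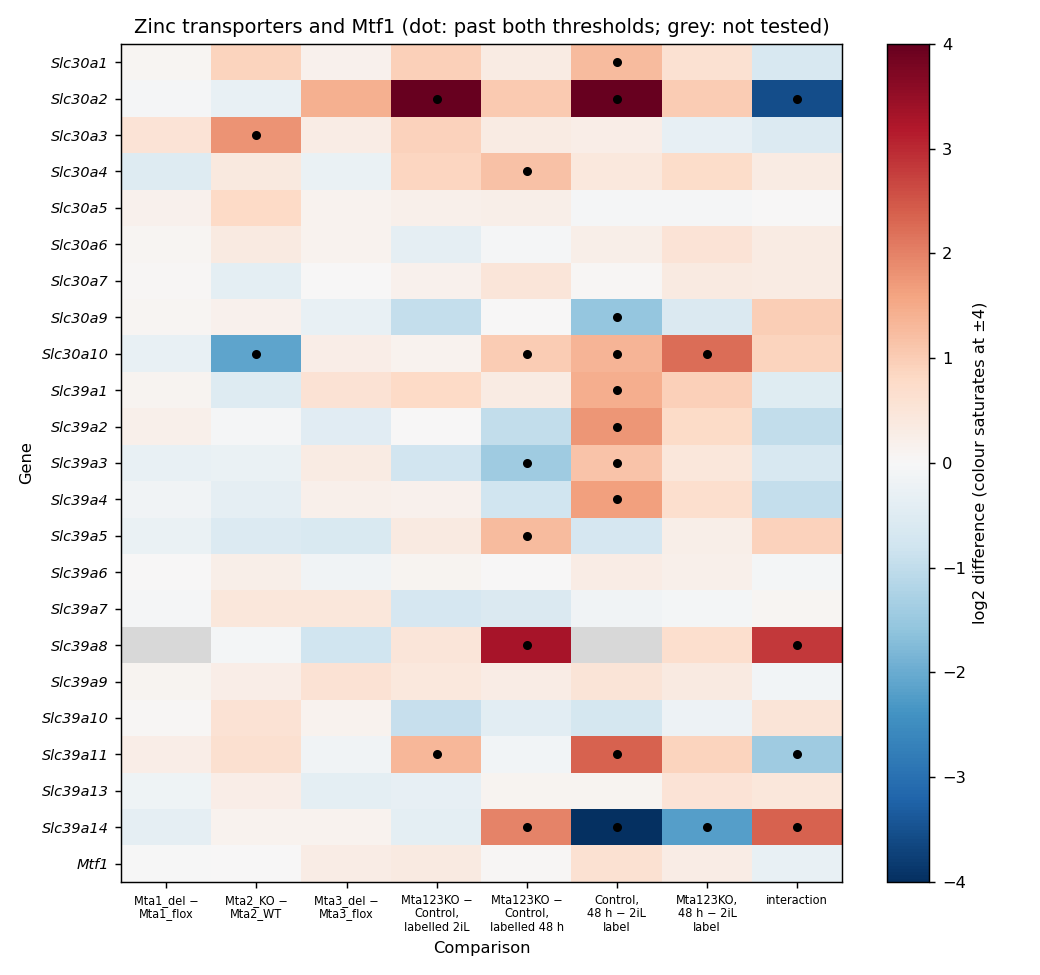
Log2 difference (colour, saturating at 4 in either direction) of Mtf1 and of each zinc exporter (Slc30) and importer (Slc39) tested in any comparison (rows) in the 7 comparisons and the interaction (columns); dots mark genes past both thresholds and grey cells genes that were not tested. The column of Control by culture label holds 10 dots, the Mta1_del and Mta3_del columns hold no dot, and the Mtf1 row holds none.

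Bbs2, Ogfod1 and Nup93, the genes nearest to the cluster, were not called in any comparison, whereas some farther out were. The 5 nearest protein-coding genes on each side start at -369.1 to 353.9 kb from the start of Mt1. Bbs2 and Ogfod1, the nearest before Mt4, differed by 0.22 (SE 0.07) and -0.10 (SE 0.05) in Mta2_KO, 0.08 (SE 0.18) and -0.32 (SE 0.17) in Mta3_del, and -0.44 (SE 0.10) and -0.17 (SE 0.07) in Mta123KO labelled 2iL, none called. Nup93, a nuclear pore subunit and the next gene after Mt1, differed by 0.06 (SE 0.05), 0.05 (SE 0.16) and 0.08 (SE 0.09). Bbs2 stayed under the fold threshold, though its edgeR adjusted p was 0.0308 in Mta2_KO and 0.00677 in Mta123KO labelled 2iL. Between labels in Control it differed by -0.68 (SE 0.12, adjusted p = 0.0004). Farther away, Herpud1, an endoplasmic reticulum stress gene, rose by 1.92 (SE 0.09, edgeR adjusted p = 2.8e-07) in Mta2_KO, the 1 neighbour of 10 called there. In Mta3_del, Gnao1, Nlrc5 and Cpne2 fell by 2.06, 2.21 and 1.52 (adjusted p = 0.0223, 0.0454 and 0.0388), opposite to Mt1, Mt2 and Mt4. In Mta123KO labelled 2iL, Slc12a3, Nlrc5 and Cpne2 rose by 1.91, 2.08 and 1.77 (adjusted p = 0.00332, 1.59e-05 and 0.00137). Labelled 48 h, where no metallothionein gene was called, Slc12a3 and Nlrc5 rose by 3.21 and 3.58 and Gnao1 by 1.64 (adjusted p = 0.000358, 0.000337 and 0.00029). Of all genes tested, 5.31% were called higher in Mta2_KO and 5.25% lower in Mta3_del. In Mta123KO 13.2% were called higher labelled 2iL and 14.1% labelled 48 h. In each culture comparison 3 of 10 neighbours were called lower and none higher, where 13.2% of all genes were called lower in Control and 4.62% in Mta123KO. The median log2 difference of the tested genes of chromosome 8 lay between -0.11 (804 genes, Mta3_del) and 0.08 (792 genes, Mta2_KO) in all comparisons.

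**Figure D5:**
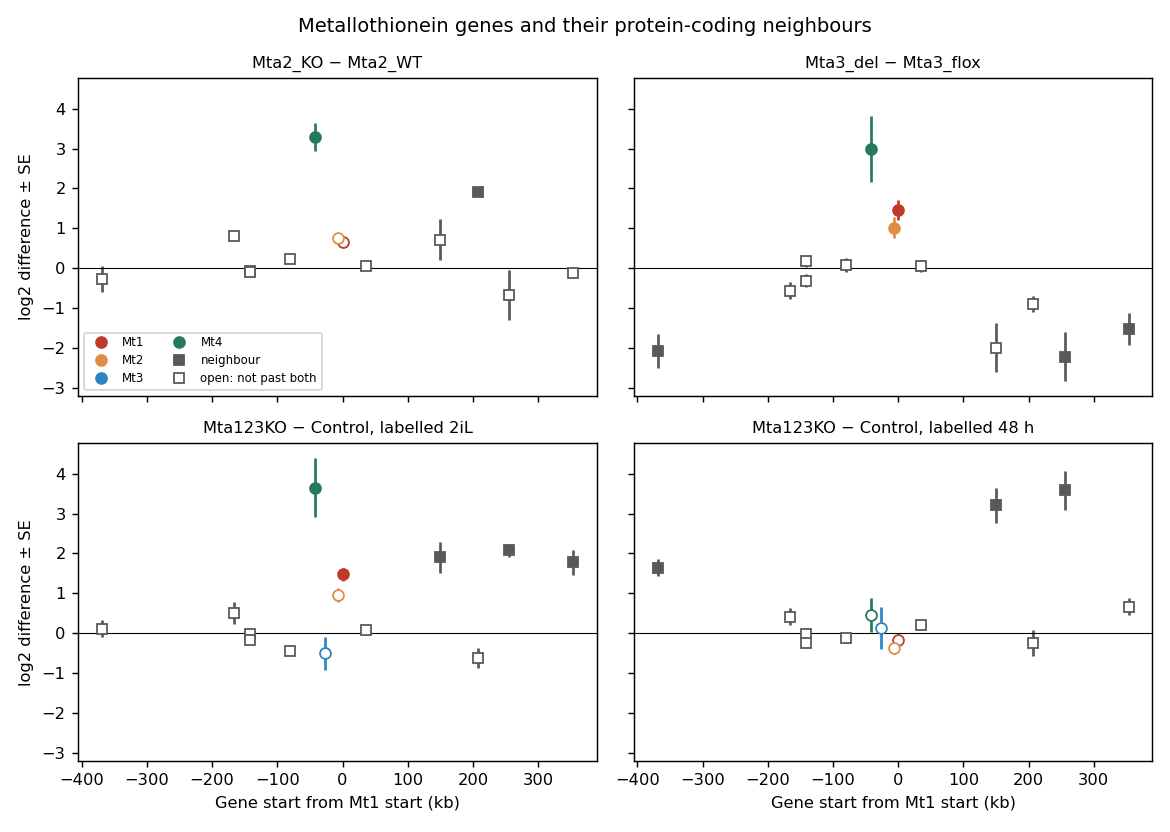
Log2 difference with SE (y axis) of the metallothionein genes (coloured circles) and of their 10 protein-coding neighbours (grey squares) against the distance of each gene's start from that of Mt1 in kb (x axis), in 4 comparisons; filled symbols passed both thresholds. The neighbours within 150 kb stay below 1 in all 4 panels, while called neighbours lie farther out, below 0 in Mta3_del and above 0 in Mta123KO. The nearest called neighbour is Slc12a3, at 150.1 kb.

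Mt1 and Mt2 were the genes most like each other over the 34 libraries. Log2 CPM was centred within each set, and over the 12730 genes averaging 1 CPM or more in both sets, Pearson's r between the pair was 0.954. The points share libraries, lines and depth, so r is a description. Next for Mt1 came Opa3 (r = 0.832), Tmem42 (0.818), Dhx16 (0.792) and 2410131K14Rik (0.791), and for Mt2 Trap1a (0.817), Bud31 (0.814), Srpr (0.796) and Opa3 (0.768). None of these lies on chromosome 8. The pair kept r = 0.966 in the single-mutant libraries alone and 0.937 in the second set alone, while Opa3 went from 0.923 to 0.658 for Mt1. Slc30a1 stood at rank 322 for Mt1 (r = 0.591) and 309 for Mt2 (r = 0.582), and Mtf1 at rank 3999 (r = 0.206) and 5095 (r = 0.103).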

How the data were processed

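RNA-seq libraries of mouse ES cells were used as deposited, 18 of single mutants and their parents (single-end) and 16 of Control and Mta123KO (paired-end, with ERCC spike-in RNAs). The authors trimmed reads with Trim Galore, ran Tophat against GRCm38/mm10 and assigned reads to genes with featureCounts, and the deposited values are raw counts without normalization; handling of reads with several alignments is not given in the sources used here. Identifiers were matched to GENCODE symbols for 21852 of 22018 and 48349 of 48709 genes. Groups and replicate numbers were taken from the labels.

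Tests on the counts used edgeR 4.0.16 (R 4.3.3; TMM, filterByExpr, quasi-likelihood test, Benjamini-Hochberg adjustment over all genes tested), only the compared groups entering a fit. A gene was called where adjusted p was under 0.05 and log2 fold change beyond 1 in either direction. Simulated counts holding 200 changed genes served to test recovery of known changes. The members and all gene lists were chosen with earlier results of these data known. From the lists, up to 4 genes per list and comparison past both thresholds were named, and Mtf1, Slc30a1 and Slc39a10 always; the 5 nearest protein-coding genes on each side and the 5 genes most like Mt1 and Mt2 were named by position and correlation. CPM values use TMM, and log2 CPM a prior count of 2. Same-numbered libraries deviated together in the Mta1 comparison (r = 0.521 to 0.735) and between labels of one line (0.388 to 0.454 in Control, 0.653 to 0.698 in Mta123KO), and in the other comparisons not in every pair. Replicate numbers of the labels gave the pairs. Libraries of one line differed beyond counting error (chi-square per degree of freedom 6.32 to 19.4) but less than those of different lines in Mta123KO (87.0 to 113), so p-values over 4 libraries can be too small. Alternatives were RLE size factors, DESeq2 1.42.0, no filter, the replicate block, one fit per set, summed lines, spike-in scaling, no fold threshold and leaving out each replicate number. Sequences are from RefSeq (GRCm38.p6) and GENCODE, and proteins were not used here.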

Additional observations from a re-analysis of the deposited data

Results flagged for a closer look

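The interaction term of edgeR's quasi-likelihood test, for a change between culture labels that differed between Control and Mta123KO, was called for 8 of the 48 list genes tested. These were 4 zinc transporters, 3 stress genes and 1 glucocorticoid-responsive gene, where 7.66% of all genes were called higher and 5.37% lower. It passed both thresholds for 3 of the 4 metallothionein genes too. For them this is only a description, since they were chosen with their levels known. A negative value means that the libraries labelled 48 h stood lower against those labelled 2iL in Mta123KO than in Control. It was -1.63 for Mt1, -1.32 for Mt2 and -3.17 for Mt4 on the log2 scale. Among zinc transporters it was -3.54 for Slc30a2 (adjusted p = 0.00581) and -1.44 for Slc39a11 (adjusted p = 0.00143), and 2.37 for Slc39a14 (adjusted p = 0.00173) and 2.81 for Slc39a8 (adjusted p = 0.000684). Slc39a8 lay near the limit of detection in Control labelled 48 h, at 0.0946 ± 0.0362 CPM, so its value is a description. Of the stress genes, Nqo1 was at -1.21, Srxn1 at -1.06 and Keap1 at -1.28 (adjusted p = 0.00259, 0.0157 and 0.000549), and Sgk1, a glucocorticoid-responsive kinase gene, was at 1.32 (adjusted p = 0.0074). With the libraries of each line summed, none of the 3 member interactions was called, and 1 list gene was. By Dixon's ratio of gap to range, no library in a group of 4 passed the critical value for the members, Mtf1, Slc30a1 or Slc39a10, although leaving out replicate 2_2, the highest Control library for Mt4 labelled 2iL, moved the Mt4 difference there from 3.65 to 4.99.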

How the results depend on the processing

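Over 291 alternative values of the members' log2 differences, 281 moved by less than the spread between replicates, and the 12 called differences kept their sign in all 120 of theirs, 18 of which were no longer past both thresholds. The 3 changes of sign were in uncalled values: Mt1 in Mta1_del without replicate 2 (-0.03), and Mt3 in Mta123KO labelled 48 h without replicate 1_1 (-0.10) and with spike-in scaling (-0.06). Mt3 could not be fitted there without replicate 2_1. The cause of these movements was not tested.

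With the replicate block, no member gained or lost a call: Mt1 was 0.24 in Mta1_del and 1.46 in Mta123KO labelled 2iL, and list calls were 3 there. With spike-in scaling, Mt1 and Mt2 rose by 1.06 and 0.96 with the 48 h label in Control. In line 1 alone Mt3 changed by -4.20 in Control and -2.07 in Mta123KO between labels, where 2 members were called, and in line 2 alone Mt4 changed by -0.19 in Mta123KO and 5 list genes were called. With summed lines, 2 values per group, members called were 1 in Mta123KO labelled 2iL, 1 between labels in Control, 0 in Mta123KO and 0 in the interaction, and list genes called were 5 in Mta123KO labelled 48 h, 0 between labels in Mta123KO and 1 in the interaction. Without the fold threshold, list genes called were 31 in Mta2_KO, 14 in Mta3_del, 31 and 26 in Mta123KO labelled 2iL and 48 h, and 37 and 19 between labels in Control and Mta123KO. The share of all genes called without the fold threshold was not counted.

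Leaving out 1 replicate number at a time gave 0.72 to 0.78 for Mt2 and 3.003 to 3.85 for Mt4 in Mta2_KO, 3.07 to 4.99 for Mt4 in Mta123KO labelled 2iL, and 0.15 to 1.61 for Mt3 and -4.07 to -2.88 for Mt4 in the interaction. Members called ranged from 0 to 1 in Mta3_del and from 1 to 2 between labels in Control, and list genes called from 0 to 4 in Mta3_del and from 3 to 8 in Mta123KO labelled 2iL. The interaction was not fitted with the block. Depth limits Mt3 and Mt4, which had at most 138 and 95 counts in a library.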

Other observations

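Mt1 and Mt2 were higher in line 2 than in line 1 in all 4 groups of the second set, by 0.22 to 0.58 for Mt1 and 0.14 to 0.67 for Mt2 on the log2 scale. The median of 913 genes of chromosome 8 differed between the lines by 0.15 and 0.17 in Control labelled 2iL and 48 h, and by -0.03 in both Mta123KO groups. Mt4 was higher in line 2 of Control, by 1.70 and 1.54, and lower in line 2 of Mta123KO, by -1.38 and -0.36. These differences between lines were not tested.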
